A study of Mus musculus with 10 samples.

Results

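Manf, Cdnf, Creld1 and Creld2 encode proteins that enter the endoplasmic reticulum (ER), the compartment in which secreted and membrane proteins fold. They form 2 pairs of paralogs, Manf with Cdnf and Creld1 with Creld2. The members were the rows whose Ensembl identifier carries 1 of these 4 symbols in GENCODE M21, 4 of the 48709 rows of each count table. RNA was taken from primary mouse hippocampal neurons, which are cells of the hippocampus grown in culture, after 10 days in vitro. Cultures received tunicamycin at 2 ug/mL (group Tunica6h, 6 libraries) or DMSO, its solvent (group DMSO6h, 4 libraries), for 6 h. No genotype, strain or age of the animals was stated. The labels do not state if each library is a culture of its own, and p-values therefore reflect library-to-library spread that could be technical alone. The comparison asks how ER stress changes transcripts in these cultures.

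Tunicamycin blocks the transfer of the first sugar to the lipid carrier of N-glycosylation, so newly made glycoproteins fail to fold. The unfolded protein response then starts from the sensors IRE1, PERK and ATF6. ATF6, together with the factor NF-Y, acts through a motif called the ER stress response element (ERSE) near the start of chaperone genes. MANF and CDNF are small, soluble proteins of the ER lumen that can be secreted and that protect dopamine neurons. MANF binds the chaperone BiP. CRELD1 and CRELD2 carry repeats related to epidermal growth factor. CRELD1 is held in membranes and is known for its role in the division of the heart chambers, whereas CRELD2 is a soluble luminal and secreted protein that binds misfolded clients. KDEL receptors return soluble proteins from the Golgi to the ER by the last 4 residues of the chain.

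The last 30 coding bases of each gene are shown because they encode the end of the chain that KDEL receptors read in the soluble members. Each is given 5′ to 3′ on the gene's strand, with the last 4 codons before the stop codon in capitals. The bases come from the GENCODE transcript paired with RefSeq, and each stretch lies in 1 exon on GRCm38.
Manf (chr9:106889041-106889070, minus strand): aaggcagccagcgcaCGGACTGATCTGtag
Cdnf (chr2:3523960-3523989, plus strand): gtagagatataccccCAAACGGAGCTCtga
Creld2 (chr15:88826407-88826436, plus strand): acacagccaccctccCGTGAGGATTTGtga
Creld1 (chr6:113492872-113492901, plus strand): gtgctggagggcttcATCAAGGGTAGAtaa
Manf and Cdnf have 179 and 187 codons, and Creld2 and Creld1 have 350 and 420. The longest run of identical coding bases was 17 between Manf and Cdnf and 16 between Creld1 and Creld2. No 50-base word, the length of a read here, was shared between transcripts of any of the 4 genes, so a read that matches exactly cannot pass from one paralog to the other.

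All 4 genes rose with tunicamycin, by amounts that differed widely within each pair of paralogs. Creld2 rose 8.51-fold and Manf 3.401-fold, whereas Cdnf rose 1.56-fold and Creld1 1.23-fold. Levels are counts scaled to a library total of 1000000 (CPM), and fold changes and tests come from edgeR's quasi-likelihood test on the counts, adjusted over 15660 genes. Of these genes 31.8% were called higher and 32.5% lower at an adjusted p under 0.05, 64.3% in all, so a call for 1 gene was common in this comparison. A called rise of at least 2-fold was found in 2.78% of genes and held for Creld2 and Manf. For each of the 4 genes all 6 tunicamycin libraries lay above all 4 DMSO libraries, a pattern found in 27.0% of genes. Counts were of whole cultures, so a changed share of a cell type and a changed level per cell cannot be told apart.

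Creld2 (ENSMUSG00000023272, chr15:88819646-88826683, plus strand) stood at 21.9, 21.9, 20.2 and 20.1 CPM in DMSO replicates 1 to 4. With tunicamycin its lowest, median and highest levels were 165, 182 and 193 CPM. The groups were far apart, and the lowest tunicamycin libraries, replicates 5 and 6, still exceeded every DMSO library several times over. The means were 21.03 ± 0.999 CPM (SD, n = 4) and 180 ± 11.4 CPM (SD, n = 6). On the log2 scale Creld2 changed by 3.09 ± 0.05 (SE), with an adjusted p of 5.94e-22 in edgeR, and by 3.07, 3.22 and 3.05 in sequencing lanes 1, 2 and 3, as named in the file names, fitted alone. Creld2 ranked 14 among the 15660 tested genes by log2 fold change.

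Manf (ENSMUSG00000032575, chr9:106838312-106891979, minus strand) stood at 90.5, 81.3, 82.7 and 79.3 CPM in DMSO replicates 1 to 4. Its lowest, median and highest levels with tunicamycin were 264, 286 and 301 CPM. The groups did not overlap, and tunicamycin replicate 5 was the lowest of its group for Manf as it was for Creld2. Means were 83.4 ± 4.92 CPM (SD, n = 4) and 285 ± 13.3 CPM (SD, n = 6). On the log2 scale Manf changed by 1.77 ± 0.04 (SE), with an adjusted p of 2.41e-19 in edgeR, and by 1.78, 1.80 and 1.77 in lanes 1, 2 and 3. Manf ranked 105 by log2 fold change.

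Cdnf (ENSMUSG00000039496, chr2:3513030-3526376, plus strand) was scarce, with 43 to 105 counts per library. It stood at 1.86, 2.85, 2.63 and 1.99 CPM in DMSO replicates 1 to 4. With tunicamycin the lowest, median and highest levels were 3.21, 3.74 and 3.999 CPM. The groups came close, since the highest DMSO library, replicate 2, lay just under the lowest tunicamycin library, replicate 3. The means were 2.33 ± 0.478 CPM (SD, n = 4) and 3.69 ± 0.284 CPM (SD, n = 6). Cdnf changed by 0.64 ± 0.13 (SE) on the log2 scale, with an adjusted p of 0.00014 in edgeR. Lanes 1, 2 and 3 alone gave 0.68, 0.38 and 0.91, and in lane 2, with 1 DMSO and 2 tunicamycin libraries, the change did not pass the test (edgeR adjusted p = 0.202). The spread between DMSO libraries was 20.5% of the mean, where counting error alone at 55.2 counts gives 13.5%. Between tunicamycin libraries the spread was 7.69%, below the 10.4% that counting error alone gives at 93.3 counts.

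Creld1 (ENSMUSG00000030284, chr6:113483297-113493343, plus strand) stood at 72.0, 63.5, 66.4 and 64.7 CPM in DMSO replicates 1 to 4. With tunicamycin the lowest, median and highest levels were 78.4, 82.1 and 88.5 CPM. The groups did not overlap, but the gap between DMSO replicate 1 and tunicamycin replicate 1 was small. Means were 66.7 ± 3.76 CPM (SD, n = 4) and 82.3 ± 3.48 CPM (SD, n = 6). Creld1 changed by 0.30 ± 0.04 (SE) on the log2 scale, with an adjusted p of 8.44e-07 in edgeR, and by 0.25, 0.34 and 0.33 in lanes 1, 2 and 3. Under upper-quartile scaling the median over all tested genes went from -0.02 to -0.13 in log2 fold change, and the rise of Creld1 was 0.18 (edgeR adjusted p = 0.000417). That scaling also turned the split of called genes from 4983 higher and 5082 lower into 3632 higher and 6934 lower.

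**Figure D1:**
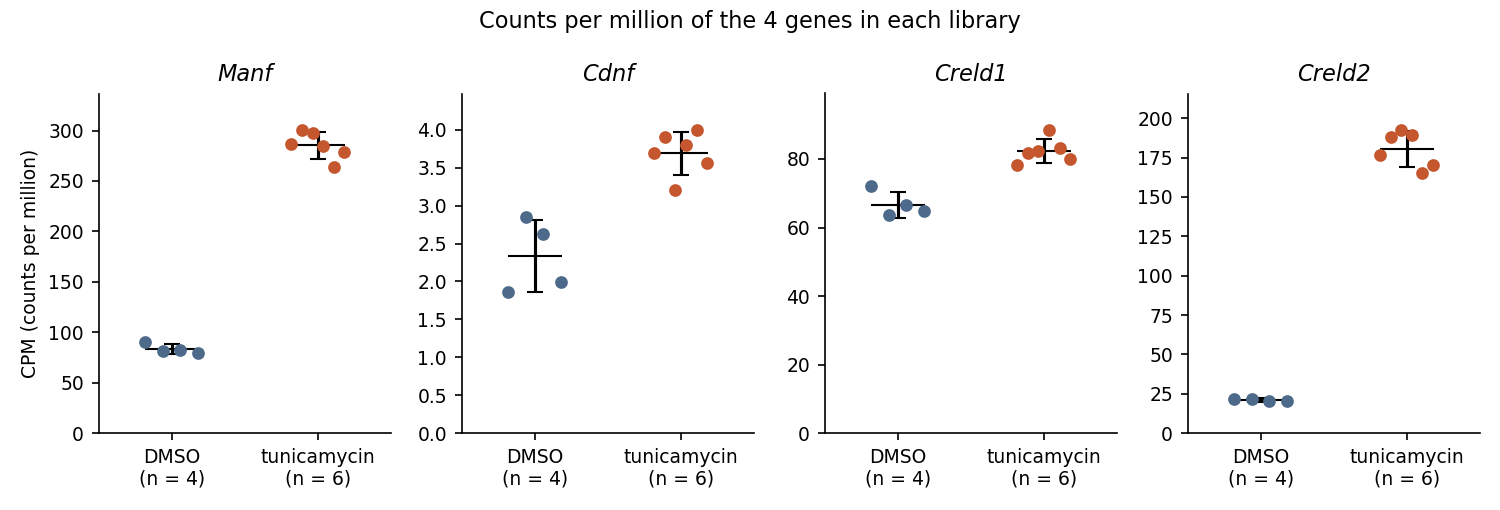
CPM (vertical axis, linear from 0, a scale of its own in each panel) of the 4 genes in each library, by group. Points are libraries, the horizontal mark is the mean and bars are the SD; Creld2 goes from 21.03 to 180 CPM, and in no panel do the groups overlap.

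In the authors' deposited table of upregulated genes the log2 fold changes were 3.08 for Creld2, 1.76 for Manf, 0.64 for Cdnf and 0.29 for Creld1. The authors' deposited table lists an adjusted p of 2.28e-05 for Cdnf and 2.77e-11 for Creld1, and lists it at 0 for the other 2 genes.

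**Figure D2:**
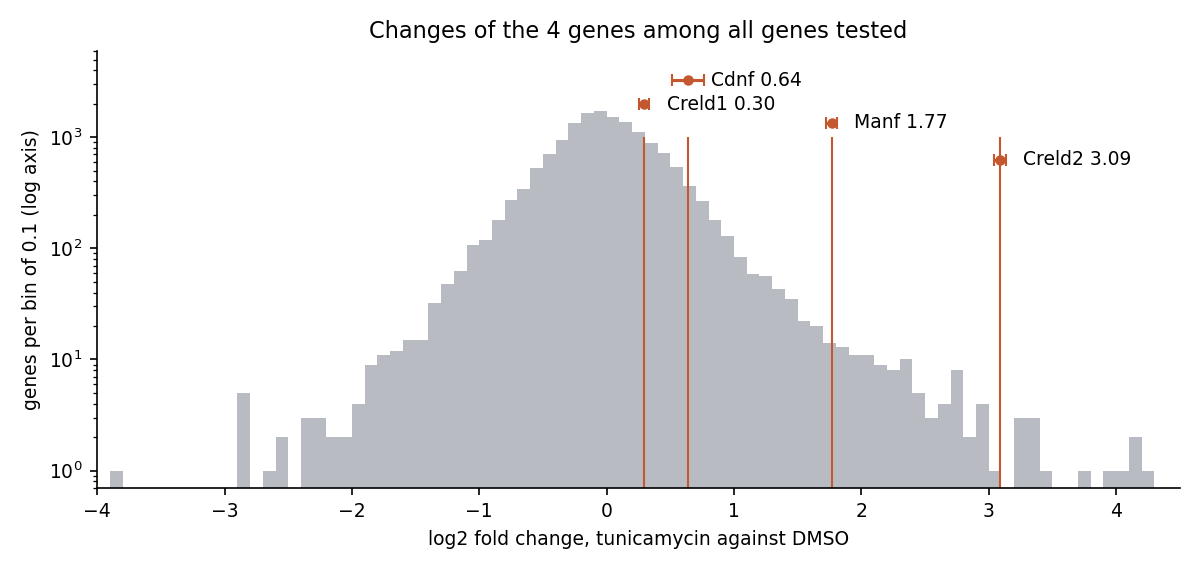
Number of genes (vertical log axis) by log2 fold change (horizontal axis, bins of 0.1) for all 15660 tested genes, with the 4 genes as points and their SE as bars. Creld2 at 3.09 and Manf at 1.77 lie in the thin upper tail, and Cdnf at 0.64 and Creld1 at 0.30 lie closer to 0, at ranks 1208 and 3574 from the top.

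The paralogs were then set against each other within each library, where the library's size cancels out. The log2 ratio of Manf to Cdnf counts was 5.59, 4.83, 4.96 and 5.30 in DMSO replicates 1 to 4. It ran from 6.04 to 6.53 in the 6 tunicamycin libraries, so Manf gained on Cdnf in all of them. The mean rose by 1.10 ± 0.18 (SE), a 2.14-fold larger rise of Manf than of Cdnf (exact permutation p = 0.00476, two-sided, and 0.00476 after Benjamini-Hochberg adjustment over the 2 pairs). No lower p can come from the 210 ways of splitting the 10 libraries. Within lanes 1, 2 and 3 the difference was 1.06, 1.41 and 0.87. The log2 ratio of Creld2 to Creld1 counts rose as well. Its sign depends on the lengths of the genes, so only its change is compared. It was -1.71, -1.54, -1.72 and -1.68 in the DMSO libraries and ran from 0.99 to 1.22 with tunicamycin. Creld2 thus had 0.316 counts for each count of Creld1 with DMSO and 2.19 with tunicamycin. The difference was 2.79 ± 0.06 (SE), or 6.93-fold (two-sided exact permutation p = 0.00476, and 0.00476 adjusted over the 2 pairs), and within lanes 1, 2 and 3 it was 2.81, 2.88 and 2.72. Spread within a group was below 0.1 for Creld2 to Creld1 and up to 0.341 (SD, DMSO) for Manf to Cdnf, whose DMSO counts of Cdnf were the lowest.

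A further 4 ratios were added after the values and annotation were seen and adjusted together. Their pairs were thus picked with the values known, and their p are description only. Creld2 gained on Manf, the other member with a large rise, by 1.32 ± 0.04 on the log2 scale (two-sided exact permutation p = 0.00476, 0.00952 adjusted over the 4 ratios). For the weakly responding members, Cdnf gained on Creld1 by 0.37 ± 0.18 (two-sided exact permutation p = 0.0333, 0.0444 adjusted). This last difference did not pass when any 1 of DMSO replicates 1 and 4 or tunicamycin replicates 1, 2, 4, 5 and 6 was left out, with values of 0.23 to 0.38 and exact permutation p of 0.0556 to 0.0952. In lanes 1, 2 and 3 it was 0.47, 0.04 and 0.58.

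**Figure D3:**
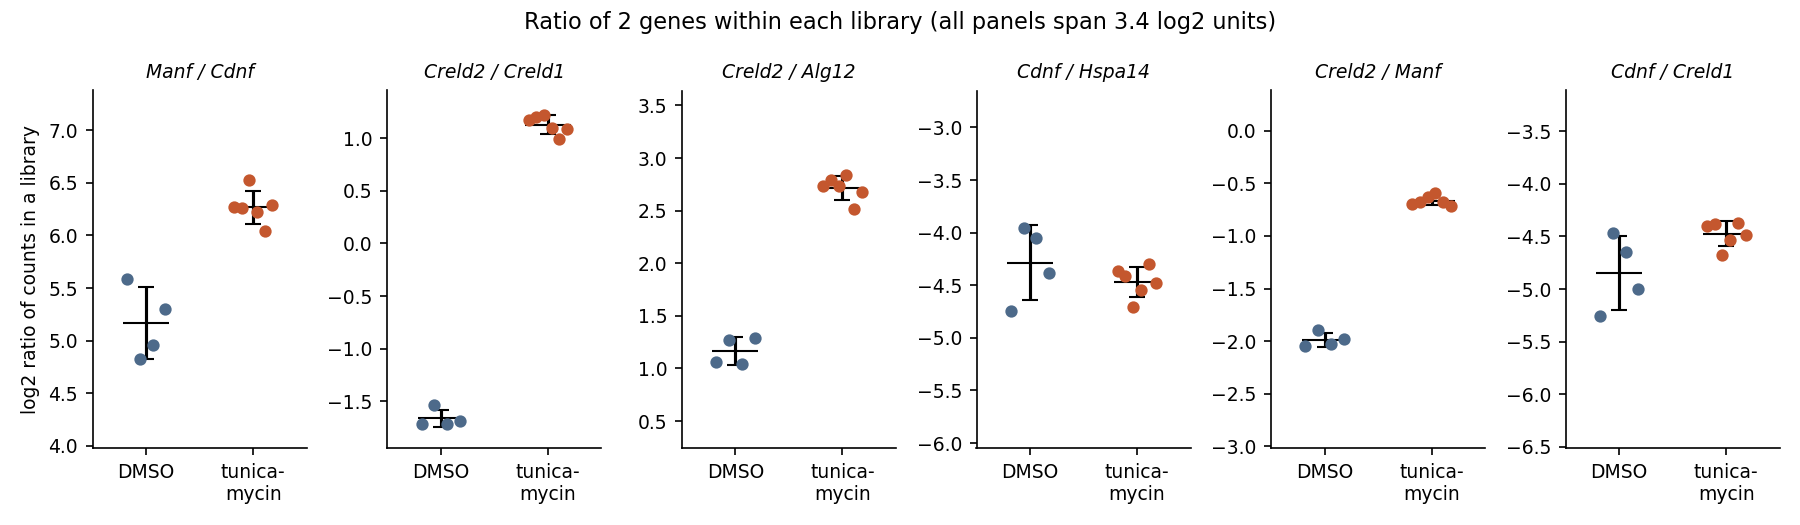
Log2 ratio of the counts of 2 genes in each library (vertical axis, panels of equal span) by group, for 6 gene pairs; points are libraries, the mark is the mean and bars are the SD. The Creld2 to Creld1 ratio shows the widest gap between groups (2.79), whereas the groups overlap for Cdnf to Hspa14.

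Levels of different genes can be compared only per length, here as counts per kilobase of merged exons, scaled to a library total of 1000000 (RPKM). With DMSO the order was Manf at 23.7 ± 1.40 RPKM (SD, n = 4), Creld1 at 15.7 ± 0.885, Creld2 at 15.4 ± 0.731 and Cdnf at 0.750 ± 0.154. Creld1 and Creld2, neighbours in that order, had overlapping ranges of 14.9 to 16.9 and 14.7 to 16.1 RPKM. With tunicamycin Creld2 came to the top at 132 ± 8.33 RPKM (SD, n = 6), above Manf at 81.0 ± 3.77, Creld1 at 19.4 ± 0.819 and Cdnf at 1.19 ± 0.0913. The ranges of these 4 did not overlap. These comparisons depend on the length used. Merged exons span 3524 bases for Manf and 4251 for Creld1, whereas their longest transcripts have 2247 and 2306. Per base of the longest transcript Manf reached 127 ± 5.92 RPKM with tunicamycin, and its range of 117 to 134 RPKM overlapped the 121 to 141 RPKM of Creld2. On the same basis Creld1 with DMSO ran from 27.5 to 31.2 RPKM, clear of the 14.7 to 16.1 RPKM of Creld2.

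Creld2 and Cdnf each start next to a protein-coding gene that runs the other way. Manf has no protein-coding partner of this kind. The antisense gene 4930524O07Rik does begin inside Manf, at chr9:106891547 on the plus strand, and spans the Manf start. Alg12 encodes a mannosyltransferase that extends the glycan of N-glycosylation on its lipid carrier. Its annotated start lies 328 bases from that of Creld2 on the opposite strand. Hspa14, which encodes an Hsp70-like protein that works at the ribosome, starts 216 bases from Cdnf on the opposite strand. Neither partner shares an exonic base with the member. The sequences between these starts, for Creld2 the 250 of 327 bases nearest to it, are shown because each serves as the upstream side of both genes. The Creld1 stretch is added as the paralog without such a partner. They are RefSeq promoter windows (GRCm38.p6, plus strand), which begin 250 bases before the RefSeq start, kept to the part outside annotated genes. Capitals mark matches on either strand to ERSE (CCAAT, then any 9 bases, then CCACG), to its first part (CCAAT), and to ATTGG, any base, CCAC. The last is the related motif ERSE-II (ATTGG, any base, CCACG) without its final base.
Creld2 (chr15:88819396-88819645): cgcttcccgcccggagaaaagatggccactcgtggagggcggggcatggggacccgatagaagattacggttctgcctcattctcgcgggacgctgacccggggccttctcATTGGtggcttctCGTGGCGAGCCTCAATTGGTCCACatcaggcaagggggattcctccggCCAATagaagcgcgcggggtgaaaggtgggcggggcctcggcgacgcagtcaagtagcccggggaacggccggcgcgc
Cdnf (chr2:3512815-3513029): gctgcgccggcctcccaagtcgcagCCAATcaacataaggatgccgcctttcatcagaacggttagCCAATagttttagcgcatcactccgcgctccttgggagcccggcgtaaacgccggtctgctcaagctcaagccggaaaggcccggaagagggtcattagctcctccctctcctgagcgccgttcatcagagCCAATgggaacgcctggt
Creld1 (chr6:113483141-113483296): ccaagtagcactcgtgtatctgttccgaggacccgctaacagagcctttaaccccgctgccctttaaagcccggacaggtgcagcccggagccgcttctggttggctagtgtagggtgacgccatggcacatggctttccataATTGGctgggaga
Promoter windows matched Cdnf, Creld1 and Creld2, 3 of the 4 members.

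The Creld2 stretch holds 1 complete ERSE, on the strand opposite to Creld2 and thus in the direction of Alg12, at chr15:88819520-88819538. It lies 126 to 108 bases before the Creld2 start, inside the windows of both genes. A complete ERSE was found in 0.119% of the 32851 windows of 300 bases, on both strands, and the Creld2 and Alg12 windows, which share this 1 site, count among them. The match to the shortened ERSE-II overlaps the ERSE by its first 5 bases, and was searched for after the sequence had been seen. It occurs in 0.213% of windows. Neither the Cdnf nor the Creld1 window holds ERSE, ERSE-II, the motif TGACGTGG (UPRE) or TTGCATCA (the core of the element bound by ATF4) on either strand. CCAAT alone, which overlaps ERSE, occurs 3 times in the windows of Creld2 and of Cdnf and once in that of Creld1, and in 37.4% of all windows. Manf had no promoter window, so its upstream sequence was not searched for any of these motifs. The matches given are of letters and do not show binding.

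Both head-to-head partners rose. Alg12 averaged 9.39 ± 0.996 CPM (SD, n = 4) with DMSO and rose to 27.4 ± 1.13 CPM (SD, n = 6). Its log2 change was 1.54 ± 0.06 (SE), with an adjusted p of 3.86e-15 in edgeR. The libraries did not overlap, with 8.21 to 10.5 CPM in DMSO and 26.4 to 28.9 CPM in tunicamycin. Creld2 rose more than its partner, and the log2 ratio of Creld2 to Alg12 went up by 1.55 ± 0.08 (two-sided exact permutation p = 0.00476, 0.00952 adjusted over the 4 added ratios), and by 1.60, 1.74 and 1.30 in lanes 1, 2 and 3. Hspa14 averaged 45.3 ± 3.68 CPM with DMSO and 82.1 ± 4.57 CPM with tunicamycin, and its log2 change of 0.85 ± 0.05 (SE) had an adjusted p of 1.47e-12 in edgeR. The ratio of Cdnf to Hspa14 overlapped between groups and differed by -0.18 ± 0.19 on the log2 scale (two-sided exact permutation p = 0.281). Without DMSO replicate 1 that difference was -0.34 (exact permutation p = 0.0357), and in lanes 1, 2 and 3 it was -0.04, -0.57 and -0.0026. The data do not show that Cdnf and Hspa14 rose alike.

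The 2 arrangements were set beside all others of their kind. Among protein-coding genes, 562 pairs had starts within 400 bases in this arrangement and both genes tested. Both genes were called higher in 88 pairs, or 15.7%, the Cdnf pair among them. Both were called at least 2-fold higher in 1 pair (0.178%), Creld2 with Alg12. It was also the 1 such pair among 628 when the limit was 1000 bases. Of single tested genes, 31.8% were called higher and 2.78% at least 2-fold higher. Whether the pairs exceed what these shares would give was not tested. These distances were chosen after the members' neighbours had been seen.

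**Figure D4:**
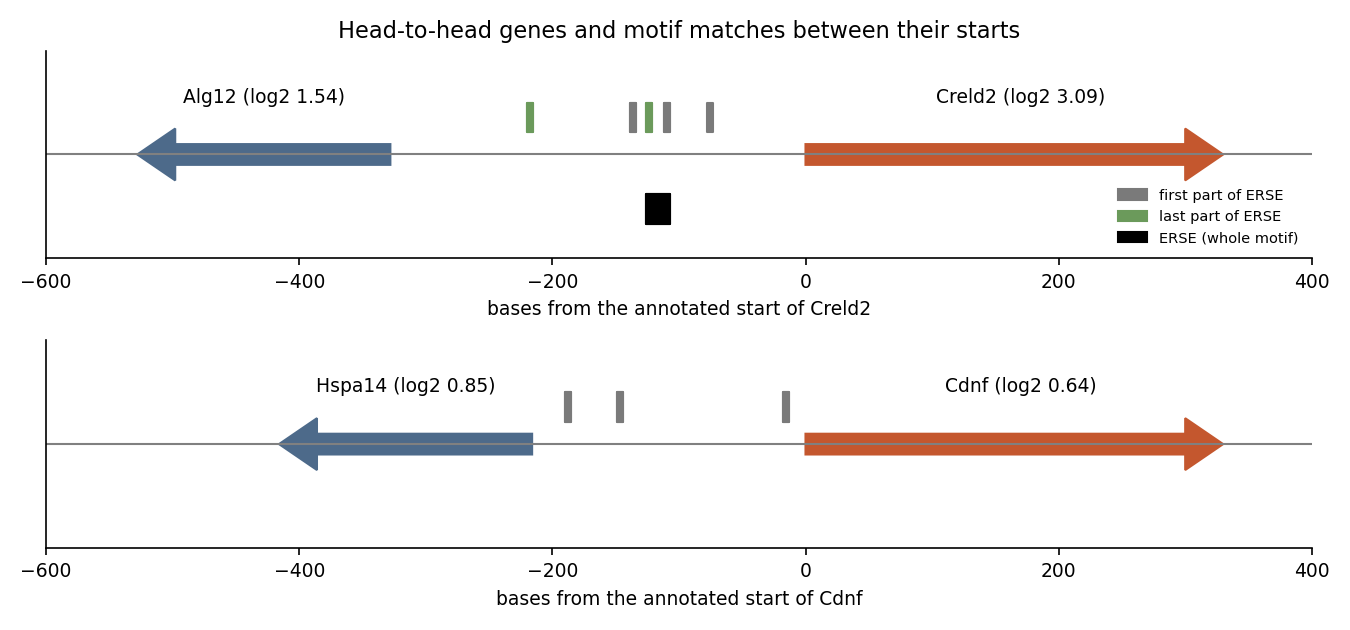
The start regions of Creld2 with Alg12 and of Cdnf with Hspa14, drawn to scale in bases from the member's annotated start, with arrows for the direction of each gene (arrow length is not gene length) and boxes for motif matches in the 300-base windows of both genes. A complete ERSE stands between the starts of Creld2 and Alg12 (log2 fold changes 3.09 and 1.54), and the stretch between Cdnf and Hspa14 (0.64 and 0.85) holds matches to the first part only.

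The other neighbours varied. Pim3, the gene next to Creld2 at its other end, rose by 0.15 on the log2 scale (edgeR adjusted p = 0.0243) and by an uncalled 0.04 under upper-quartile scaling (edgeR adjusted p = 0.598). Fam107b, which follows Cdnf at a distance of 44111 bases, rose by 0.65, beside 0.64 for Cdnf. Creld1 lies between Il17rc, 156 bases upstream on the same strand and not called (-0.22, edgeR adjusted p = 0.331), and Prrt3, which fell (-0.44). Rad54l2 and Dock3 on either side of Manf rose by 0.24 and 0.16, and Dock3 did not pass under upper-quartile scaling (0.05, edgeR adjusted p = 0.282). Pim3 also did not pass in lane 1 or 2 alone, or without DMSO replicate 2 or 4 or tunicamycin replicate 2 or 4.

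Manf is the 1 member whose annotated body overlaps other genes. It shares 146 exonic bases with Dcaf1 (log2 fold change 0.41) and 166 with 4930524O07Rik (1.48), both on the opposite strand, and 14 with Rbm15b (0.95) on its own strand. The kit does not mark strand, so reads of these bases cannot be told apart. They make up 4.14%, 4.71% and 0.397% of Manf's exonic bases. The antisense gene 4930524O07Rik held 3 to 24 counts per library, against 1749 to 8159 of Manf. For Cdnf, 1.17% of 50-base words also occur in transcripts of other genes. Creld1 and Creld2 shared none.

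The lists of related genes help to place the members. Of 18 ER chaperones and folding genes, 18 rose, where 31.8% of all tested genes did, with a median log2 fold change of 1.42 against -0.02 for all. Under upper-quartile scaling 17 rose and Ppib, a cyclophilin, changed sign. Creld2 exceeded every gene of that list, the nearest being Herpud1, a membrane protein of ER-associated degradation, at 2.92. Manf, at 1.77, exceeded 12 of the 18. Cdnf exceeded 3 of them and Creld1 exceeded 1, Ppib (0.10). Hspa5, which encodes BiP, the chaperone that binds MANF, ran from 574 to 677 CPM with DMSO and from 2970 to 3370 CPM with tunicamycin. The log2 change of Hspa5 was 2.38 ± 0.04 (SE), with an adjusted p of 7.65e-20 in edgeR, between those of Manf and Creld2. Of the 15 genes of this list with a promoter window, 6 held a complete ERSE (Hspa5, Hsp90b1, Calr, Canx, Pdia6 and Dnajc3), as Creld2 does. Their log2 fold changes ran from 0.36 (Canx) to 2.38 (Hspa5). Those with a window but no ERSE ran from 0.10 (Ppib) to 2.92 (Herpud1), with Sdf2l1 at 2.77. A link between the motif and the size of the rise was not tested.

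Of 12 sensors and transcription factors of the unfolded protein response 9 rose, where 31.8% of all tested genes did, with a median of 1.08. The sensor genes Eif2ak3, which encodes PERK, Atf6 and Ern1, which encodes IRE1, rose by 1.67, 1.28 and 0.89 on the log2 scale. Xbp1, the target of IRE1 splicing, rose by 1.29, and Ddit3, which encodes CHOP, by 2.93. Mbtps1, the protease that makes the first cut in ATF6, fell (-0.18), and Atf6b and Mbtps2 were not called (-0.04 and -0.06). Under upper-quartile scaling these 3 genes were all called lower, and 9 genes of the list still rose.

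The receptors that retrieve the soluble members differed in direction. Kdelr1 fell from 79.5 ± 4.74 to 65.8 ± 2.61 CPM (log2 -0.28, edgeR adjusted p = 1.83e-06). Kdelr2 rose from 56.2 ± 4.91 to 73.8 ± 3.22 CPM (0.39) and Kdelr3 from 3.30 ± 0.707 to 4.77 ± 0.523 CPM (0.52), although Kdelr3 did not pass in lane 1 alone. The summed CPM of all 3 was 133 to 154 in DMSO libraries and 140 to 148 in tunicamycin libraries, with overlap. This sum is not scaled by gene length, and receptor protein was not measured. Among 4 proteins reported to bind MANF or CDNF, Hspa5 and Ern1 rose. Itpr1, an ER calcium channel, was not called (0.01), but it was called lower under upper-quartile scaling. Nptn, a surface protein of neurons described as a MANF receptor, fell (-0.20). Nptn went from 375 ± 10.1 to 328 ± 7.87 CPM, and its fall did not pass the test in lane 1 alone.

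CRELD2 is known to associate with nicotinic acetylcholine receptor subunits. Of 6 subunit genes 4 were tested, 3 fell and none rose, with a median of -0.52, where 32.5% of all tested genes fell. Under upper-quartile scaling 4 fell. Chrna4 fell from 19.6 ± 1.53 to 10.6 ± 0.6251 CPM (log2 -0.89, edgeR adjusted p = 3.51e-11) and Chrnb2 from 93.1 ± 1.47 to 68.1 ± 2.98 CPM (-0.46). CRELD1 is known to act on calcineurin and NFAT in the heart. Of 12 genes of that pathway 11 were tested, 3 rose, 3 fell and 5 were not called, counts near the 31.8% and 32.5% of all tested genes that rose and fell. The calcineurin regulators Rcan1 (0.56) and Rcan2 (0.29) had the smallest p of this list, and its median was 0.06. That median was -0.05 under upper-quartile scaling, where 4 genes fell. Rcan2 did not pass in lane 1 alone.

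Among conventional neurotrophic ligands, Bdnf rose by 0.70 on the log2 scale, from 97.8 ± 4.16 to 160 ± 6.26 CPM. Ntf3 fell (-0.35), as did Nrtn (-0.87). Gdnf, to whose family of dopamine neuron factors MANF and CDNF are often compared, was too low to test, at 0.231 to 0.370 CPM with DMSO and 0.237 to 0.377 CPM with tunicamycin.

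**Figure D5:**
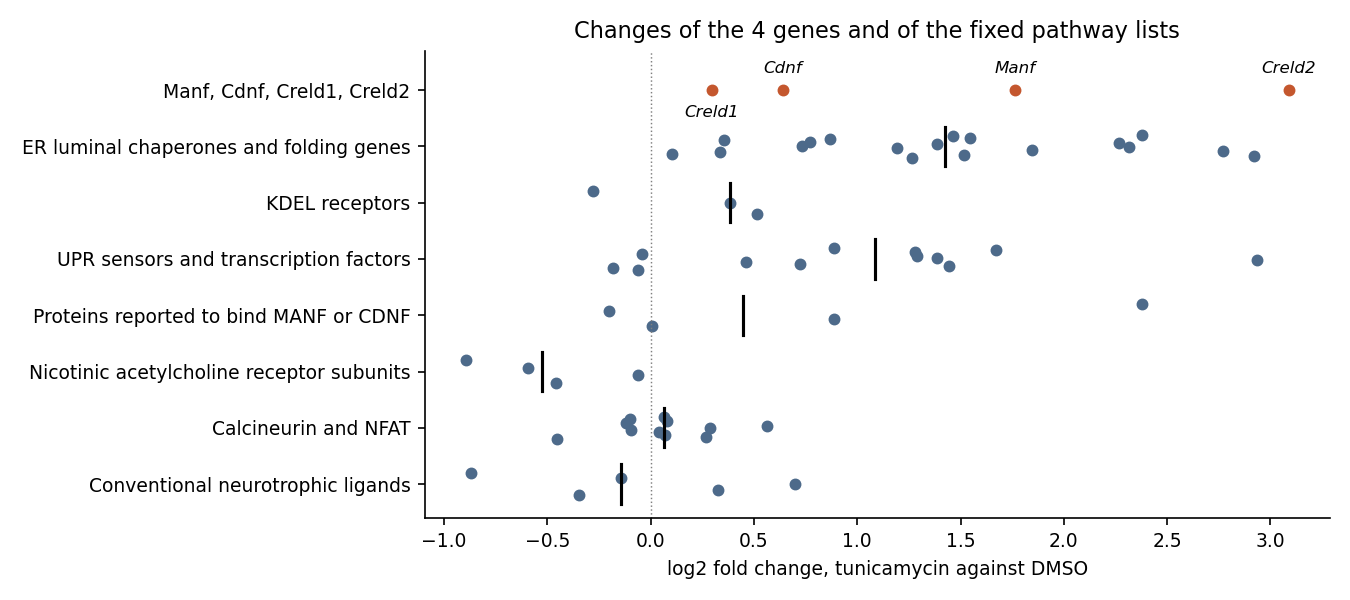
Log2 fold change (horizontal axis) of the 4 members and of each tested gene of the fixed pathway lists (points), with the median of a list as a black bar and 0 as a dotted line. Creld2 lies to the right of every listed gene, Manf among the upper chaperones, and the nicotinic receptor subunits lie to the left of 0.

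The genes whose levels ran most closely with each member over the 10 libraries were found by Pearson's r of log2 CPM. The libraries share the treatment difference and their depth, so these r describe mainly that difference. For Manf they were Hspa5, Hyou1, Sec23b, Hsp90b1 and Jdp2 (r of 0.9995, 0.9995, 0.9993, 0.9993 and 0.9992). For Creld2 they were Mthfd2, Hspa5, Pdia6, Stk40 and Snhg17 (0.9995 down to 0.9993). Hspa5 was the gene named for both. For Creld1 they were Nmt1, Nsun5, Dvl1, Hdgfl2 and Slc9a8 (0.992 to 0.986), and for Cdnf they were Lrrtm3, Syt10, Lpin3, Sgcd and Aff2 (0.963 to 0.953).

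Deviations from the group means describe what is left once the treatment is taken out. Over the same 10 libraries the deviations of Manf and Creld2 correlated at r = 0.722, and those of Manf and Hspa5 at 0.909. Hspa5 had the highest r with Manf in these same libraries, so the value of 0.909 is raised by that selection. Within the pairs of paralogs r was -0.471 for Manf and Cdnf and 0.257 for Creld1 and Creld2. These values rest on 10 libraries that differ in depth and lane and are given with no test.

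Library totals ran from 21055289 to 29234887 counts, with 22182 to 23651 genes detected per library. The labelled cell type was present, with Map2, Snap25 and Slc17a7 at 2355, 739 and 634 CPM with DMSO. Other cells were too. Counts of fallen markers stand beside 32.5% of all tested genes that fell. Neuron markers summed to 5313 to 5830 CPM with DMSO and 4540 to 4787 CPM with tunicamycin, and 6 of 8 fell (4 with DESeq2, 7 under upper-quartile scaling). Astrocyte markers summed to 2768 to 3177 and 1938 to 2167 CPM, and 6 of 6 fell. Microglia markers summed to 12.6 to 16.2 and 8.68 to 11.01 CPM (5 of 6 fell), and those of oligodendrocyte precursors to 145 to 199 and 86.2 to 110 CPM (3 of 4 fell). Oligodendrocyte markers summed to 19.6 to 26.1 and 21.98 to 24.1 CPM (Mog rose, 3 of 4 tested). Endothelial markers summed to 1.15 to 1.74 and 2.15 to 3.17 CPM (Flt1 rose, 3 of 4 tested, and Cldn5 was at 0 in at least 1 library of each group, as was Mag of oligodendrocytes), and those of fibroblasts and mural cells to 86.9 to 149 and 66.3 to 107 CPM (2 of 4 fell). The part of these markers in the changes of the 4 members was not tested.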

How the data were processed

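For each library the deposited file gives unnormalized whole-number counts for 48709 Ensembl identifiers. Further tables by the authors list genes that rose or fell in their own comparison, holding a log2 fold change, an adjusted p-value and a normalized signal per library. For the 4697 genes of the authors' upward table the deposited signal was the count over a library factor in 100% of values (relative tolerance 1e-04). Per the submitters' processing notes, reads involved the build mm10, DESeq2, featureCounts, Subread 1.5.1, STAR 2.5.2b and FastQC 0.11.5, without stated roles. Libraries were unstranded TruSeq v2, read as 50-base single ends, per the labels' protocols. For ambiguous reads and the annotation release, the choice is not given in the sources used here. Reads in overlapping genes may therefore have been dropped or shared.

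GENCODE M21 (GRCm38) matched 48349 identifiers, and the other 360 held 0.0462% of counts. The test was edgeR 4.0.16 in R 4.3.3 (quasi-likelihood, robust, two-sided, TMM, filterByExpr, 15660 genes, Benjamini-Hochberg) over all 10 libraries without a block. SE is the log2 fold change divided by the square root of F. CPM and RPKM use the library totals. Ratios used a pseudocount of 0.5. Libraries of a group differed beyond sampling noise (chi-square per degree of freedom 2.18 to 10.5). The code was tested on simulated data.

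The members and lists were chosen with earlier results of these data known. The genes named are the members, the 5 genes most like each by r (unnamed gene models passed over), overlapping and nearest protein-coding genes, 13 set genes and the 2 with the smallest p of each list of 6 or more. Other list genes were named after their values were seen. Alternatives were DESeq2 1.42.0, other scalings and filters, a replicate block, lanes, other pseudocounts and lengths, and each library left out. Counts over the list of neurotrophic ligands are not reported here.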

Additional observations from a re-analysis of the deposited data

How the results depend on the processing

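The rise of Manf, Creld1 and Creld2 kept its direction and its call under all 21 alternatives each, with log2 fold changes of 1.65 to 1.80, 0.18 to 0.34 and 2.97 to 3.22. Cdnf kept both except in lane 2 alone (0.38, edgeR adjusted p = 0.202), and its other values reached 0.91. Lanes 2 and 3 hold 1 DMSO library each, so their calls assume that this library varies like the tunicamycin ones. With 1 library left out the ranges were 1.75 to 1.80 (Manf), 0.54 to 0.76 (Cdnf), 0.27 to 0.33 (Creld1) and 3.07 to 3.12 (Creld2). No pairing by replicate number was seen in the values. Deviations of the 4 same-numbered pairs correlated at -0.217 to 0.00853, and 0 of 4 DMSO libraries correlated best with its own number. These correlations cannot show whether same-numbered libraries were prepared together. With the replicate block the members changed by 1.80, 0.63, 0.30 and 3.14 in the same order, and 8847 genes were called in place of 10065. In the paired form the ratio of Manf to Cdnf differed by 1.15 and that of Creld2 to Creld1 by 2.84, and 4 pairs cannot give a p below the 0.125 found. Per base of the longest transcript Manf stood at 37.1 and 127 RPKM and Creld1 at 28.9 and 35.7 RPKM with DMSO and tunicamycin, because that transcript is shorter than the merged exons. Of the other 46 named genes, Il17rc turned to 0.21 in lane 2 alone (the cause was not tested), and 18 of 965 values lost their call. With the block Pim3 lost its call (0.15). Cdnf had the lowest counts of the 4 members (43 to 105 per library), and the part of depth in its spread was not tested.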

Other observations

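Stress motifs were rare in the 300-base promoter windows as a whole. A complete ERSE stood in 39 of 32851 windows and ERSE-II in 12. Of 19 tested genes with an ERSE 14 rose, and of 8 with ERSE-II 8 rose, among them Herpud1 and the J-protein gene Dnajb11. Of 119 tested genes with the UPRE 54 rose, and of 82 with the ATF4 core 42 rose. The share of all tested genes that rose was 31.8%. Windows that face each other across a shared start region, such as those of Creld2 and Alg12, count their site in both genes, and these counts are given with no test.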
